A study of Drosophila melanogaster with 8 samples.

Results

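Maternal NSUN2 knockout embryos were compared with wild-type embryos at 4–5 h after egg laying, using the level of each gene in 1 deposited mRNA-seq table per genotype. These were 2 of the 8 tables of the series, chosen by their labelled genotype and time. The knockout embryos came from NSUN2-/- virgin females crossed to w1118 males, and the wild-type embryos, whose strain is given as WIII8, came from w1118 females crossed to w1118 males. The knockout is called maternal because the mothers carried CRISPR/Cas9 mutations of NSUN2. The father supplied an intact copy on the X chromosome, which only daughters inherit. Sons thus had no intact copy, and maternal and zygotic loss cannot be told apart in the pooled embryos. Each collection pooled 70–100 embryos. Both tables list the same 15598 genes, and 8083 of them had an FPKM of at least 1 in either table and were compared. FPKM is the number of sequenced fragments of a gene, scaled to the length of its transcripts and to sequencing depth.

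In the first hours of Drosophila development the embryo runs on mRNA that the mother loaded into the egg. During the maternal-to-zygotic transition these maternal mRNAs are degraded, partly by RNA-binding proteins such as Smaug, and the embryo's own genome is switched on to pattern the body axes and to specify the germ layers, the nervous system and the gut. NSUN2 is an RNA methyltransferase that makes 5-methylcytosine (m5C) in tRNA and mRNA. The study used the 4–5 h collections as the last of 3 matched times to ask how far embryos that lack the maternal enzyme had moved along this transition.

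A gene was called higher or lower where its log2(FPKM + 1) differed by at least 1, which for abundant genes is 2-fold, and where the intervals that Cufflinks gives for the 2 values did not overlap. With 1 table per genotype, differences could not be checked against replicates and p-values were not computed. The intervals cover counting and assignment error within a table only, while embryos collected separately may differ by more. Their median half-width at 4–5 h was 23.0% of the value in the knockout table and 29.1% in the wild-type table for genes with FPKM from 1 to 2, and 4.30% and 4.79% for genes from 100 to 200, in the same order. The fragment numbers that the intervals imply summed to 13072833 in the knockout table and 9817501 in the wild-type table. A gene listed at 0 has an interval of no width, so that calls against 0 rest on the other table alone. This applied to 11 of the genes called lower and 6 of those called higher.

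Nsun2 (X, 4005189–4007767, BDGP5) was examined first. At 4–5 h its FPKM was 1.18 in knockout embryos (interval 0.918 to 1.44) and 6.59 in wild-type embryos (5.80 to 7.37), a difference of -1.80 on the log2(FPKM + 1) scale. The knockout level was 17.9% of the wild-type level. It was not at 0 in the knockout, where about 81 fragments are implied. Markers of adult tissue were low in both tables. The 7 yolk and eggshell markers summed to 0.112 FPKM in knockout and 0.286 in wild-type embryos, and the 4 testis markers to 0.223 and 0.163, in the same order. The eggshell gene Cp15, outside those 7, was at 1.15 and 0.980. The 3 pole cell markers nos, pgc and vas summed to 112 FPKM in knockout embryos and 17.9 in wild-type embryos, and the 8 early patterning markers to 140 and 279, so both sets moved with genotype. The mother also loads these 3 pole cell markers, which summed to 871 and 818 FPKM at 0–0.5 h, in the same order. How much of their 4–5 h sums was maternal mRNA was not tested. In whole embryos, fewer cells of a type and less RNA per cell cannot be told apart.

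Of the 8083 genes compared, 591 were lower in the knockout (7.31%) and 925 were higher (11.4%). The median difference over all of them was -0.19, with quartiles of -0.65 and 0.43. Of all genes compared, 58.7% lay below wild type, while the tail of large differences was on the higher side, where the 95th percentile was 1.68, against -1.15 for the 5th. Intervals separated for far more genes than passed the size limit: 3613 lay below wild type (44.7%) and 2580 above it (31.9%). Genes called lower and genes called higher were spread over the chromosomes, with 5.73% to 8.74% lower and 9.88% to 15.8% higher on arms 2L, 2R, 3L and 3R and chromosomes 4 and X. When the tables were scaled to a median ratio of 1, which raised the median difference by 0.21, the split moved to 315 lower and 1222 higher.

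**Figure D1:**
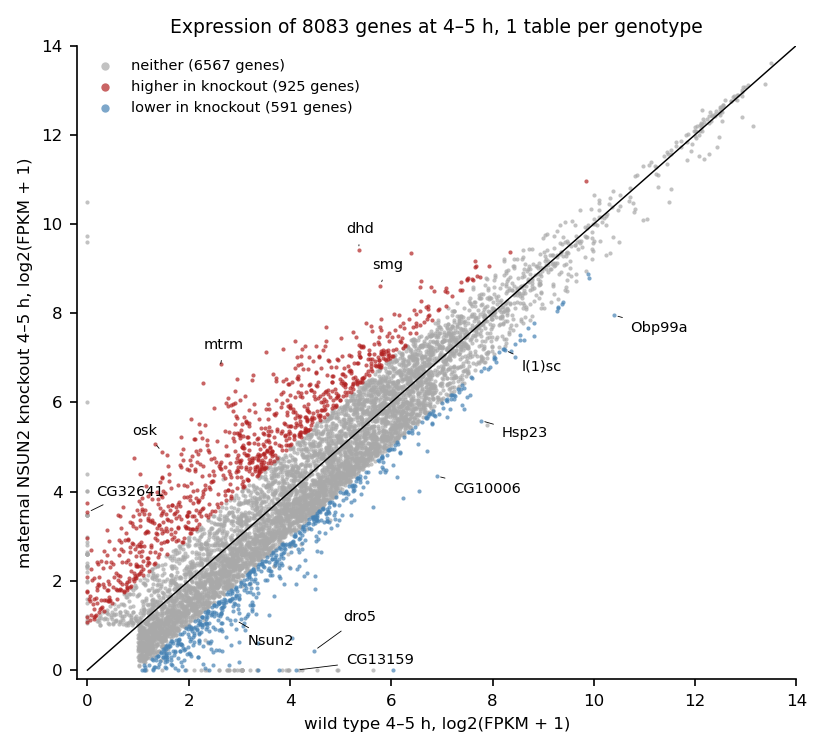
Expression of the 8083 compared genes at 4–5 h, with wild type on the horizontal axis and maternal NSUN2 knockout on the vertical axis, both as log2(FPKM + 1), 1 point per gene. The 925 genes called higher in the knockout (red) spread widely above the diagonal, up to dhd and smg at 682 and 392 FPKM, whereas most of the 591 called lower (blue) form a narrow band just below it, with Obp99a, CG10006 and Hsp23 farther out.

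The difference was then described by the course of each gene in the earlier wild-type tables, which take no part in the 4–5 h comparison. Genes were grouped by the wild-type table, from 0–0.5 h to 3–4 h, in which their FPKM was highest. This choice by wild type alone favours genes high in wild type at 4–5 h in the 3–4 h class. It favours genes low in wild type at 4–5 h in the earliest classes, so the direction per class is partly set by the grouping. Among the 2606 genes highest at 0–0.5 h, 562 were higher in the knockout at 4–5 h (21.6%) and 25 were lower. Among the 595 genes highest at 1–2 h, 204 were higher (34.3%) and 8 lower, with a median difference of 0.74. The 1158 genes highest at 2–3 h had 101 higher and 24 lower and a median of 0.13. The 3724 genes highest at 3–4 h went the other way, with 534 lower (14.3%), 58 higher and a median of -0.59. They held 90.4% of all genes called lower, while the classes highest at 0–0.5 h and 1–2 h held 60.8% and 22.1% of all genes called higher. These classes rest in part on the wild-type 3–4 h table, in which 4 late muscle markers summed to 116 FPKM, against 8.59 in wild type at 4–5 h. When classes were formed without that table, a choice made after the data were seen, 4292 genes were highest at 0–0.5 h, and their median turned to -0.14, with 603 higher and 121 lower. The class highest at 1–2 h then had a median of 0.55 and that highest at 2–3 h one of -0.45.

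**Figure D2:**
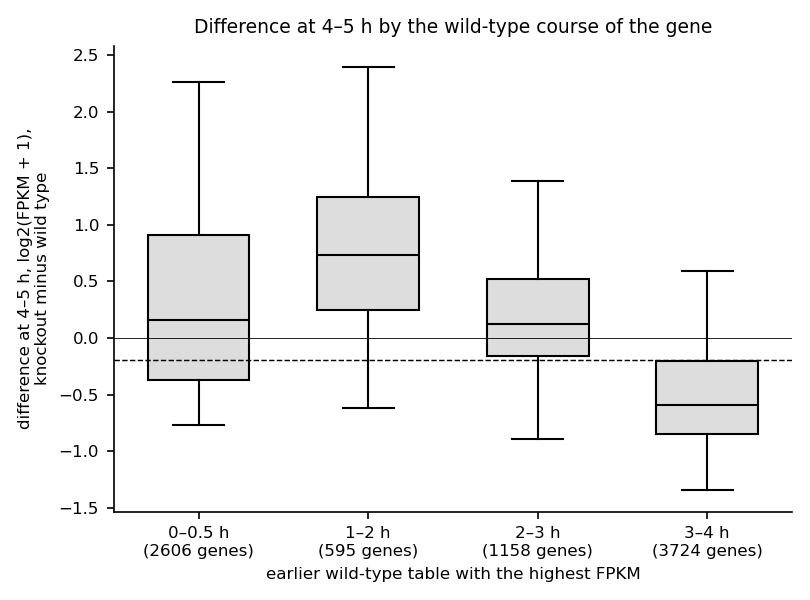
Difference of log2(FPKM + 1) at 4–5 h, knockout minus wild type, for genes grouped by the earlier wild-type table with their highest FPKM. Boxes span the quartiles with the median as a line, whiskers the 5th to 95th percentile, and the dashed line is the median of all genes, -0.19. The medians are 0.16, 0.74, 0.13 and -0.59, with most genes below 0 in the class highest at 3–4 h. Without the wild-type 3–4 h table the median of the 0–0.5 h class turns to -0.14.

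A stricter pair of sets described the size of the difference within them. After 0–0.5 h both were chosen by the wild-type course alone. That choice favours genes low in wild type in the first set and genes high in wild type in the second. Maternal transcripts that wild-type embryos clear were taken as those with FPKM of at least 10 at 0–0.5 h in both genotypes and at least 4 times less in wild type at 3–4 h. Of 743 such genes 735 were compared, and their knockout level was at a median of 271% of the wild-type level (quartiles 139% and 520%), with 426 called higher (58.0%) and 2 lower. Zygotic transcripts were taken as those under 1 at 0–0.5 h in both genotypes and at least 10 in wild type at 3–4 h. Of 274 such genes 260 were compared, and their knockout level was at a median of 43.2% of wild type, with quartiles of 31.4% and 50.7%. Here 153 were called lower (58.8%), none was called higher, and for 248 the intervals were apart with the knockout on the lower side. Both sets depend on the wild-type 3–4 h table. With the 2–3 h table in its place, a choice made after the data were seen, 55 zygotic genes were compared at a median of 50.5% of wild type, with 20 lower and none higher. For the 784 maternal genes then compared the median turned to 85.6%, with 154 higher and 13 lower.

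Transcripts that mothers load into the egg had the highest median of the 39 lists. Of 19 maternal mRNA markers, 16 were higher in the knockout, none was lower, and the median difference was 1.74. Over all genes compared, 11.4% were higher and 7.31% lower, and the counts of every list below are read beside these shares. smg (3L, 8983417–8991089) encodes Smaug, which binds maternal mRNAs and recruits the machinery that degrades them. Its FPKM was 392 in knockout embryos (381 to 403) and 54.1 in wild-type embryos (52.1 to 56.2). The knockout level was 724% of the wild-type level, and its course in the knockout, 539 at 0–0.5 h, 542 at 2–3 h and 392 at 4–5 h was set against a wild-type course of 524, 345, 176, 65.7 and 54.1 over the 5 times. The genotypes overlapped at 0–0.5 h, and the knockout was called higher at 2–3 h and at 4–5 h. osk (3R, 4760853–4764117), whose protein assembles the germ plasm, was at 28.8 FPKM in knockout and 1.77 in wild-type embryos. swa and exu, both needed to localise bicoid mRNA in the oocyte, were at 48.2 and 16.4 in knockout embryos, against 3.12 and 1.23 in wild-type embryos. twe (2L, 16259414–16261877), a Cdc25 phosphatase of the germline and early embryo, was at 165 in the knockout and 16.1 in wild type. Its knockout level at 4–5 h was also above its wild-type level at 2–3 h, 145.

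The 12 largest rises were taken among called genes that reached 10 FPKM in one genotype or both and spanned at least 300 bp. All but CG32641 were present in wild type at 0–0.5 h, although AGO3, Drep-1 and CG8316 were highest in wild type later. dhd (X, 5206406–5207155), which encodes a thioredoxin of the egg, was at 682 FPKM in knockout embryos (669 to 695) and 39.9 in wild-type embryos (36.3 to 43.6). mtrm (3L, 8406112–8407203), an inhibitor of Polo kinase in oocyte meiosis, was at 116 and 5.20 in the same order and had the largest difference of these, 4.23. AGO3, an Argonaute protein of the piRNA pathway, was at 140 in knockout and 10.4 in wild-type embryos, although both genotypes had similar levels at 0–0.5 h, 171 in the knockout and 149 in wild type. Drep-1, CG5568 and CG32365 shared this pattern of a difference near 0 at 0–0.5 h and one above 3 at 4–5 h. In contrast, CG8316, CG17322 (now Ugt36E1, a UDP-glycosyltransferase), swa, bam and CG32641 were already at least 2 times higher in the knockout at 0–0.5 h. bam, a germline differentiation factor, was at 120, 79.3 and 36.4 in the knockout at 0–0.5 h, 2–3 h and 4–5 h, and at 42.0, 13.1 and 2.61 in wild type at those times.

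CG32641 (X, 13078511–13079006) was the only gene with an FPKM of at least 5 in one genotype and at most 0.1 in the other at all 3 matched times. Its knockout values were 15.2, 12.3 and 10.6 at 0–0.5 h, 2–3 h and 4–5 h, and it was listed at 0 in all 5 wild-type tables. The nearby gene CG32640 (X, 13072037–13072533), looked up because of the 0 values, was at 10.9 in knockout and 14.5 in wild-type embryos at 4–5 h. Whether these 2 genes share sequence that unique alignment would split was not tested.

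Germ plasm transcripts, which end up in the pole cells that found the germline, were higher for 7 of 11 members, with a median of 1.13. pgc, which keeps the pole cells transcriptionally silent, was at 88.6 FPKM in the knockout and 12.2 in wild type. vas, a germline RNA helicase, was at 16.9 and 3.97 and zpg, a gap junction protein of germ cells, at 17.9 and 4.60, each in the same order. The machinery of maternal mRNA decay was itself mixed, with 6 of 13 members higher and a median of 0.50. Besides smg, the higher ones included nos and pum, which act together as translational repressors, at 6.26 and 18.5 in knockout embryos and at 1.73 and 7.86 in wild-type embryos. tral, a component of repressed mRNA particles, was at 124 and 48.4.

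Among chromatin genes, CG3509 was called higher and the other variant histones were not. CG3509, now named BigH1, is the linker histone that early embryos use before somatic H1. It was at 146 FPKM in knockout embryos (142 to 150) and 17.9 in wild-type embryos (16.2 to 19.6), while the other variant histones differed by no more than 0.13 in size, for example His3.3A at 838 in the knockout and 919 in wild type. Of the 111 replication histone genes 44 were called higher and none lower. All 23 His1 copies were among the higher ones, at 12.3 to 30.3 FPKM in knockout and 3.58 to 11.6 in wild-type embryos. These copies are nearly identical, so that unique alignment leaves each with an uncertain share of the reads, and the libraries were selected for poly(A), which most replication histone mRNAs lack. Of 23 cell cycle regulators 2 were higher, twe and CycD, and 1 was lower, beside 11.4% and 7.31% over all genes. CycD was at 123 in knockout and 52.8 in wild-type embryos, and trbl, which slows mitosis by promoting String turnover in the mesoderm, was the lower one at 12.4 and 26.4 in the same order. None of 12 DNA replication genes was called, with mus209 (PCNA) at 696 FPKM in the knockout and 994 in wild type.

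**Figure D3:**
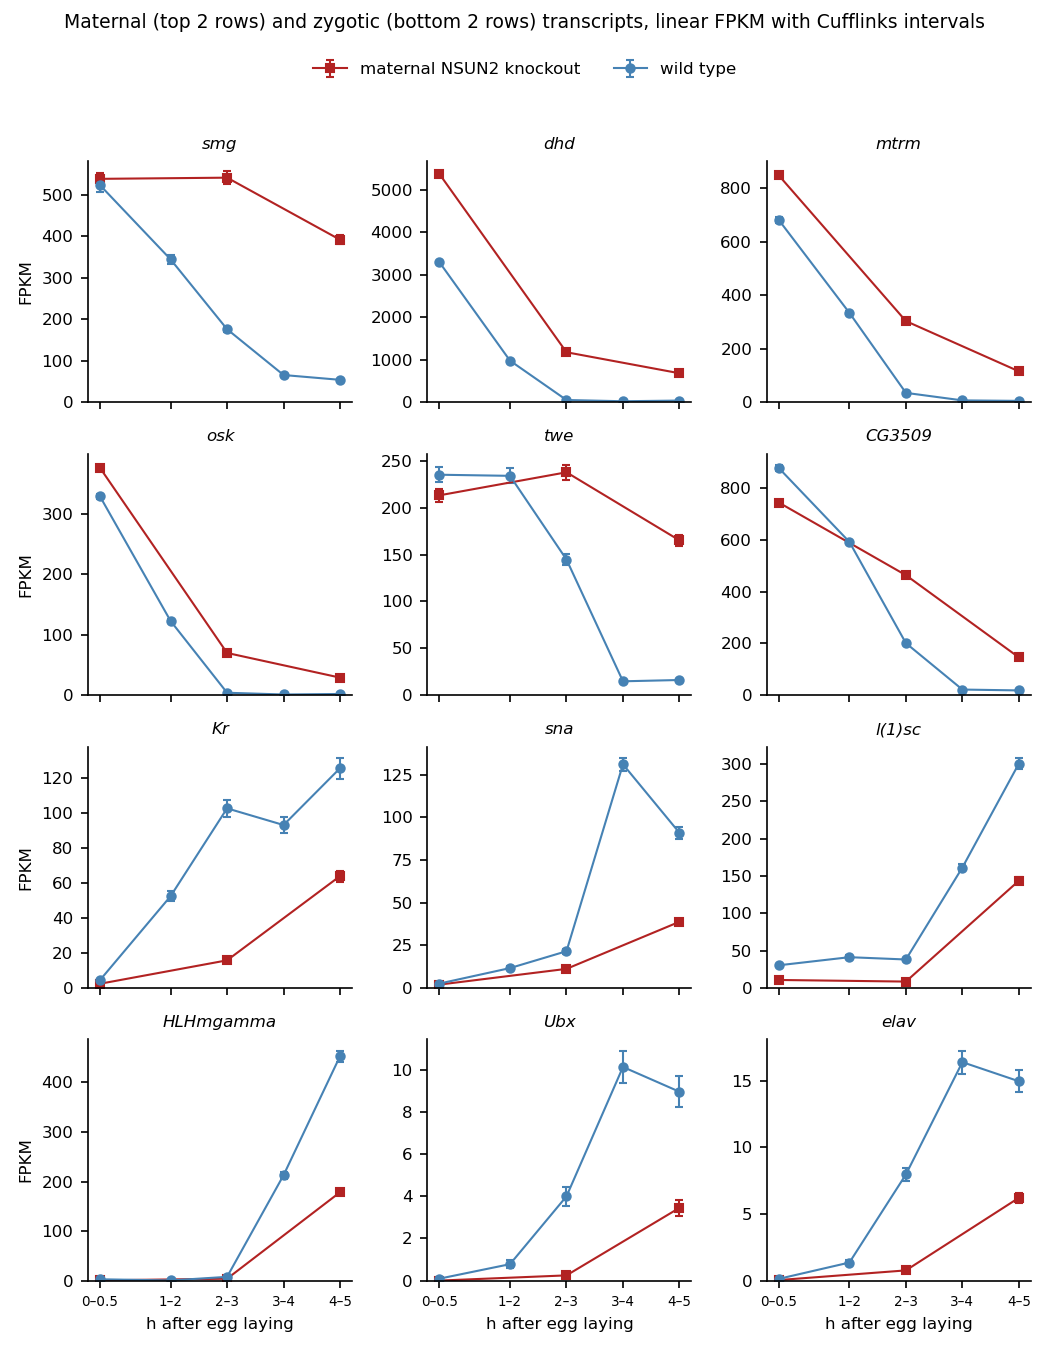
FPKM of 6 maternal transcripts (top rows) and 6 zygotic transcripts (bottom rows) against time after egg laying, in maternal NSUN2 knockout (red squares, 3 tables) and wild-type embryos (blue circles, 5 tables), with Cufflinks intervals as bars. At 4–5 h the maternal transcripts lie above wild type, as for smg at 392 against 54.1, and the zygotic ones below it, as for HLHmgamma at 178 against 453.

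Lists of zygotic patterning genes all had medians below that of all genes, and no member of the gap, pair-rule, segment polarity or Hox lists was called higher. The gap genes, which divide the embryo into broad domains, had 3 of 14 members lower and a median of -0.85. Over all genes compared 7.31% were lower. Kr (2R, 21114134–21118917) was at 63.8 FPKM in knockout embryos (60.6 to 66.9) and 125 in wild-type embryos (119 to 131), a difference of -0.96 that fell just short of the limit. pdm2 was at 55.2 and 112 and nub at 1.98 and 6.03, each in the same order. None of the 9 pair-rule genes compared was called, with a median of -0.64. Their intervals nevertheless separated for 8, among them slp1 at 121 in the knockout and 218 in wild type. Segment polarity genes, which maintain parasegment boundaries, had 2 of 11 lower and a median of -0.91, led by gsb at 9.79 and 21.2 and ci, the transcription factor of Hedgehog signalling, at 82.5 and 167. Of 8 Hox genes, which give segments their identity, 7 were compared and 5 were lower. Abd-B was at 8.89 in knockout and 21.5 in wild-type embryos, and Ubx (3R, 12482345–12560348) at 3.45 and 8.96.

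Lists of the germ layers also had medians below that of all genes. In the dorsal ectoderm list 3 of 15 genes were lower and the median was -0.80, beside 7.31% lower and -0.19 over all genes compared. Doc1, a T-box factor of the amnioserosa, was at 36.5 FPKM in the knockout and 75.8 in wild type, and pnr, a GATA factor of the dorsal ectoderm, at 4.04 and 10.04. Of 15 mesoderm genes 5 were lower, with a median of -0.85. sna (2L, 15476593–15478269), which represses neural genes in the mesoderm, was at 38.7 in knockout embryos and 90.9 in wild-type embryos. Him, an inhibitor of muscle differentiation, was at 11.7 and 48.6, and bap, which specifies visceral mesoderm, at 1.40 and 7.97. Of 7 endoderm and gut genes 3 were lower, including fkh at 3.02 in the knockout and 8.72 in wild type. cad was the exception in that list. It has a large maternal pool besides its zygotic expression in the posterior, and it was higher at 4.05, against 1.08 in wild type.

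The lists of neuroblast genes and of E(spl) bHLH genes had the lowest medians among lists with at least 4 members compared. As above, 7.31% of all genes compared were lower. Of 12 neuroectoderm genes 3 were lower, with a median of -0.88, and l(1)sc (X, 303756–304850), a proneural factor, was at 144 FPKM in knockout embryos (139 to 148) and 301 in wild-type embryos (293 to 309). Of 10 neuroblast and neuron genes 8 were lower, with a median of -1.17. wor, a Snail-family factor of neuroblasts, was at 10.1 and 36.1 and ase, a neuroblast bHLH factor, at 3.92 and 14.9, while elav, an RNA-binding protein of neurons, was at 6.21 and 14.95, each with the knockout first. All 7 E(spl) bHLH genes, the repressors that Notch signalling switches on, were lower, with a median of -1.34. HLHmgamma (now E(spl)mgamma-HLH; 3R, 21825573–21826483) was at 178 in knockout and 453 in wild-type embryos, and HLHm3 at 3.21 and 13.0. Bearded family genes, which lie partly in the same gene complex on 3R and partly on 3L, were lower for 6 of 8 members, with m4 at 263 in the knockout and 614 in wild type.

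Of 9 EGF receptor pathway genes 2 were lower, beside 7.31% over all genes compared. They were the ligand spi at 278 FPKM in knockout and 625 in wild-type embryos and the pathway modulator edl at 77.4 and 164. Of 7 tracheal and salivary gland genes 4 were compared and 3 were lower, such as the FGF receptor btl at 6.07 and 14.2. Of these 4, sage and trh reached the FPKM minimum in wild type only, at 0.485 and 0.321 in the knockout, against 2.66 and 1.26. With no filter on low values the list median moved from -1.07 to -0.77. gcm, which directs glial and blood cell fates, was at 14.3 and 34.3 and was the only one of 4 blood cell genes called. Among 10 gastrulation genes, Toll-6, Traf4 and trbl were lower, while cta, a maternally supplied G protein subunit, was higher at 87.2 in the knockout and 27.6 in wild type. The 12 genes transcribed before cellularisation split likewise, with Ilp4 lower at 296 and 661 and slam, which builds the cleavage furrow, higher at 10.3 and 1.04. Of 6 JAK/STAT genes none was called. Stat92E, which has a maternal pool, was at 140 in the knockout and 70.2 in wild type, and its target Socs36E at 2.68 and 6.19.

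**Figure D4:**
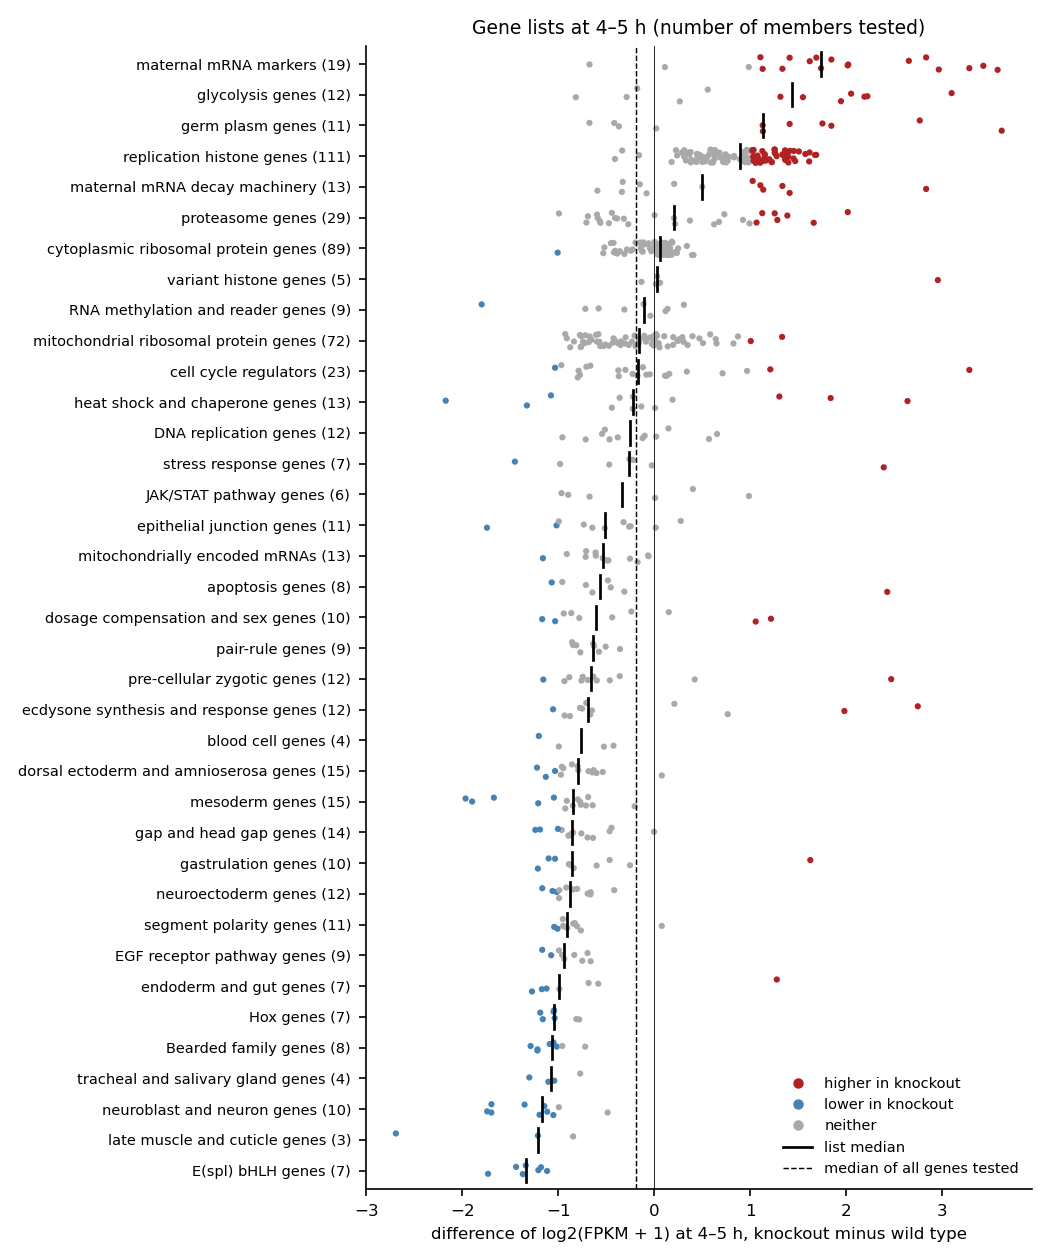
Difference of log2(FPKM + 1) at 4–5 h, knockout minus wild type, for the compared members of each gene list with at least 3 of them, 1 point per gene. Bars mark list medians, which run from 1.74 for maternal mRNA markers to -1.34 for E(spl) bHLH genes, and the dashed line marks the median of all genes, -0.19.

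The zygotic calls sat close to the limit and depended on the scaling. With the tables scaled to a median ratio of 1, none of the Hox genes, 2 of the Bearded family, 4 of the E(spl) bHLH and 5 of the neuroblast genes were still called lower, whereas 17 maternal markers were called higher. The medians kept their distance from that of all genes, at -1.14 for E(spl) bHLH genes and 1.85 for maternal mRNA markers. The lists overlap in part, as smg, nos, vas and others stand in more than 1.

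Housekeeping groups were nearer to the median of all genes. The 89 cytoplasmic ribosomal protein genes compared had a median of 0.06 and 1 call, RpLP0, which was lower at 139 FPKM in the knockout and 281 in wild type. The 72 mitochondrial ribosomal protein genes had a median of -0.15 and 2 higher, against 11.4% of all genes compared. mRNAs encoded in the mitochondrial genome were below wild type for all 13, with a median of -0.54, but only mt:ND4L was called, at 107 in knockout and 240 in wild-type embryos. Its locus is under 300 bp, and without such loci none of the 11 mitochondrial mRNAs left was called. Glycolysis genes stood out, with 7 of 12 higher and a median of 1.43. Gapdh2 was at 39.2 in the knockout and 3.68 in wild type, Gapdh1 at 9.62 and 1.28, and the hexokinase gene Hex-A at 9.01 and 1.41. The list median was 0.67 at 0–0.5 h, where 3 of 11 members compared were called higher, and 3.39 at 2–3 h, where 11 of 12 were.

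Small heat shock proteins went in opposite directions. Hsp26 and Hsp27 were higher, at 129 and 151 FPKM in knockout embryos and 19.8 and 41.4 in wild-type embryos. Hsp23 (3L, 9374982–9375865) was lower, at 47.3 (44.0 to 50.6) in the knockout and 217 (207 to 228) in wild type. It was also the lower one at the other matched times, at 34.98 and 29.6 in the knockout and 176 and 341 in wild type at 0–0.5 h and 2–3 h. Of 8 apoptosis genes, Nc, the initiator caspase Dronc, was higher at 87.4 and 15.4, and th, the caspase inhibitor Diap1, was lower at 14.7 and 31.9, with the knockout first. The dosage compensation list was split as well: the male X-linked RNA roX1 was lower at 118 and 267, and the maternally supplied msl-1 and mof were higher at 70.6 and 29.8 and at 8.30 and 3.47. ftz-f1, a nuclear receptor with a maternal role in segmentation, was at 27.0 in knockout and 3.17 in wild-type embryos, and ImpL2, a secreted binding protein for insulin-like peptides, at 126 and 263.

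None of the 12 largest drops, chosen with the same limits on FPKM and locus length, was a member of a gene list, and 9 of them were under 1 FPKM in wild type at 0–0.5 h. Obp99a (3R, 25497379–25498056), an odorant-binding protein gene, was at 247 FPKM in the knockout (239 to 256) and 1348 in wild type. CG10006 (3L, 14985389–14990917), now Zip71B of the zinc transporter family, was at 19.4 and 118 in the same order. CG12011, CG7763, CG31002, CG5399 and CG18765 were also at least 4-fold lower, and CG5224 (GstE11, a glutathione S-transferase) was at 13.6 in the knockout, against 74.7 in wild type. The 4 largest of these drops had a particular course. CG13159 was listed at 0 in all 3 knockout tables and in the first 3 wild-type tables, and was at 68.6 in wild type at 3–4 h and 16.3 at 4–5 h. CG9184 had 0 in the knockout at 4–5 h and, in wild type, 58.7 at 3–4 h and 12.8 at 4–5 h. dro5, a drosomycin-like gene, was at 0.355 in knockout embryos at 4–5 h, against 75.7 and 21.3 in wild type at 3–4 h and 4–5 h, and CG10621 at 0.644, against 44.7 and 15.5. For genes at 0 the size of the difference depends on the pseudocount.

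Several late muscle genes were likewise highest in wild type at 3–4 h. Act57B, a muscle actin, was at 0.0807 FPKM in knockout embryos at 4–5 h, and in wild type at 87.2 at 3–4 h and 5.99 at 4–5 h. The 4 late muscle markers Mhc, Act57B, Mlc2 and up summed to 0.313, 3.00 and 0.915 in the knockout at 0–0.5 h, 2–3 h and 4–5 h, and to 0.764, 0.278, 1.22, 116 and 8.59 in the 5 wild-type tables in order of time, and Act57B made up most of the last 2 sums. Act87E, another muscle actin of the wider list, had a different course, at 52.5 in the knockout at 4–5 h and at 110 and 123 in wild type at 3–4 h and 4–5 h. None of the 4 markers was at 0 at 4–5 h in either genotype, and Mhc itself was at 0.0429 and 0.118, with the knockout first. The part of these transcripts in the drops above was not tested. Leaving out all genes at least 2 times higher in wild type at 3–4 h than at 4–5 h left 527 genes lower.

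**Figure D5:**
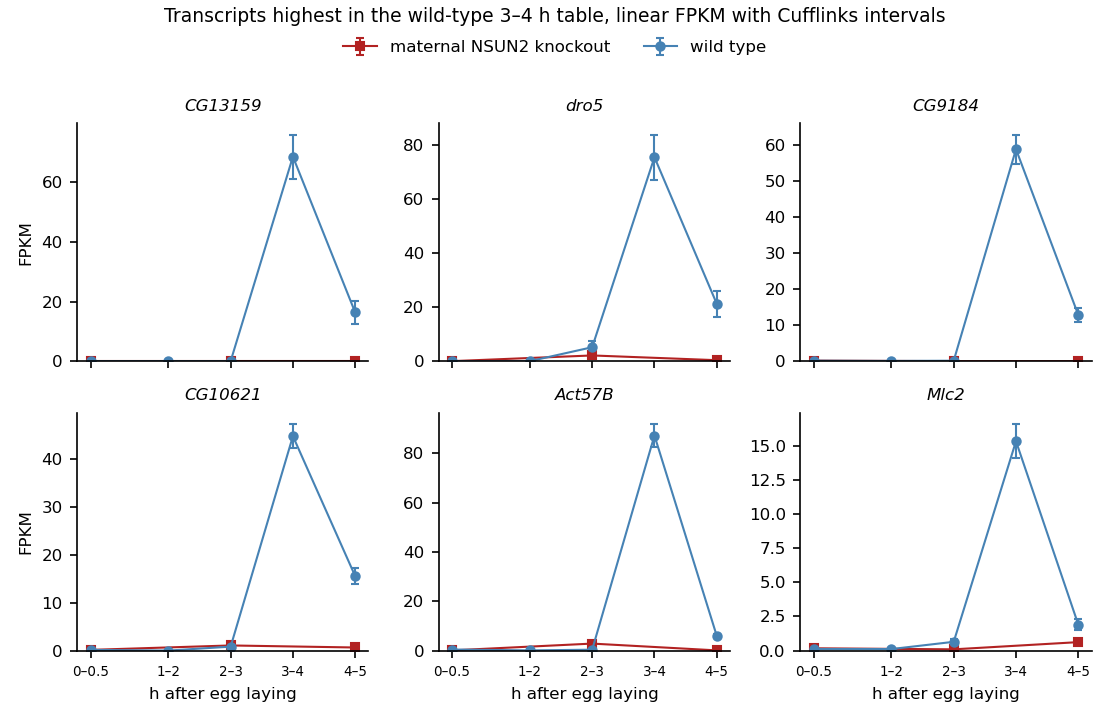
FPKM of the 4 genes with the largest drops among those named and of 2 late muscle genes against time after egg laying, in maternal NSUN2 knockout (red squares) and wild-type embryos (blue circles), with Cufflinks intervals as bars. All 6 are highest in the wild-type 3–4 h table, such as CG13159 at 68.6 and Act57B at 87.2, and under 3 FPKM in every knockout table.

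The same genes were then followed in the earlier matched tables, which share no library with those of 4–5 h. At 0–0.5 h 117 of 6969 genes were lower (1.68%) and 599 higher (8.6%), and at 2–3 h 768 of 7508 were lower (10.2%) and 2463 higher (32.8%). Of the 591 genes lower at 4–5 h, 387 reached the FPKM minimum at 2–3 h, where 206 were lower and 20 higher, and 204 reached it at 0–0.5 h, where 46 were lower and 14 higher. Of the 925 genes higher at 4–5 h, 921 reached it at 2–3 h, where 472 were higher and 1 was lower, and 917 at 0–0.5 h, where 96 were higher and 2 lower. Their median difference was 0.14 at 0–0.5 h and 1.04 at 2–3 h. Calls in the same direction at all 3 times were made for 41 lower genes, among them Nsun2, CG10006 and Hsp23, and for 94 higher genes, among them CG8316, CG17322, swa, bam and Gapdh2. X held 20 of the 94 higher genes (21.3%) and 3 of the 41 lower ones (7.32%), against 17.2% of all genes called higher at 4–5 h, 12.2% of those called lower and 15.6% of the genes compared.

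The knockout at 4–5 h was also set against younger wild-type embryos. The genes were chosen by these same knockout values at 4–5 h, so the counts are partly set by that choice. They were not compared with counts over all genes. For the 591 lower genes, the knockout interval lay above that of wild type at 1–2 h for 399 and below it for 51, above that at 2–3 h for 297 and below it for 105, and above that at 3–4 h for 1 and below it for 560. For the 925 higher genes it lay above that of wild type at 1–2 h for 261 and below it for 543, above that at 2–3 h for 523 and below it for 238, and above that at 3–4 h for 885 and below it for 3.

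The genes around the mutated locus were also examined. Within 50 kb of Nsun2, 10 genes were compared and 5 were called, including Nsun2 itself. Over all genes compared, 7.31% were called lower and 11.4% higher. CG6379 (X, 3991951–3995068; now Cmtr1, an mRNA cap methyltransferase) was lower at 8.14 FPKM in the knockout and 19.7 in wild type, and Fas2 (X, 4028405–4100123), a neural cell adhesion protein, at 5.26 and 13.7. cib (X, 4000148–4005014), an actin-binding protein gene that ends just before Nsun2 on the map, was higher at 112 and 50.8, and GlcAT-I (X, 4025250–4026866), a glucuronyltransferase, at 39.4 and 17.7. Other RNA methylation and reader genes were not called, with Ime4 (Mettl3, the m6A writer) at 41.6 in knockout and 69.1 in wild-type embryos and Mt2 (Dnmt2, a tRNA m5C methyltransferase) at 12.1 and 18.6.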

How the data were processed

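Polyadenylated RNA of early embryos was sequenced with a strand-specific kit. The authors trimmed reads with cutadapt 1.13, aligned them with TopHat2 to BDGP5, retained uniquely aligned reads and deposited Cufflinks FPKM values, already scaled to transcript length and mapped fragments, with interval bounds. The methods speak of averaged replicates. For the low values here, the intervals of the 4–5 h tables imply whole fragments on 1 scale per table: over 972 genes with up to 10 implied fragments in each table (within 0.02 of a whole number), the knockout table was 1.456 times as deep (quartiles 1.456 and 1.458). Because FPKM is relative, a large change in abundant genes moves all others. The labels mention spike-in RNA, which was not used here.

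Genes were matched by identifier, log2(FPKM + 1) was compared at a pseudocount of 1 and a minimum FPKM of 1, and coordinates are those of the tables, counted from 1. Of the entries in 39 gene lists 743 matched and 4 did not. The genes, lists and members were chosen with earlier results of these data known. The rule named Nsun2, the 12 largest drops and rises among called genes with FPKM of at least 10 and a locus of at least 300 bp, up to 4 members of each list with the largest difference (and 2 with the highest wild-type FPKM where none was called), genes on in one genotype and off in the other, called genes within 50 kb of Nsun2, and cell type markers. Alternatives were pseudocounts of 0.1 and 5, 3 scalings, other filters and other call rules. Python 3.11.15, numpy 2.4.6, pandas 2.3.3 and matplotlib 3.10.9 were used. The calls were also run on simulated data that held counting error only and planted changes well above the minimum difference. That run cannot show how the calls behave between separate collections or for changes near the minimum difference. Current symbols come from a table of another build, whose coordinates were not used.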

Additional observations from a re-analysis of the deposited data

Results flagged for a closer look

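Act57B, Ime4 and RnrS were the named genes called in opposite directions at 2 of the matched times. Act57B was lower in the knockout at 4–5 h, with a difference of -2.69 on the log2(FPKM + 1) scale, and higher at 2–3 h, with a difference of 1.49, where its FPKM was 2.83 in knockout and 0.361 in wild-type embryos. Ime4, the m6A writer, was higher at 0–0.5 h, with a difference of 1.33, and lower at 2–3 h, with one of -1.84. RnrS, a ribonucleotide reductase subunit, was higher at 0–0.5 h, with a difference of 1.01, and lower at 2–3 h, with one of -1.33. Neither was called at 4–5 h. With 1 table per genotype and time these changes of direction were not tested. Over all genes, 20 were called higher at 2–3 h and lower at 4–5 h, and 1 was lower at 2–3 h and higher at 4–5 h.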

How the results depend on the processing

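No paired analysis was possible because each condition has 1 table, and for the same reason no replicate could be left out. The count of lower genes, 591, moved to 1030 with a pseudocount of 0.1, to 144 with one of 5 and to 315 with median-of-ratios scaling, which also moved the median of all genes to 0.0136. The count of higher genes, 925, moved to 616 with a pseudocount of 5. A minimum difference of 2 left 36 lower and 237 higher genes, one of 0.5, chosen after seeing the data, gave 2606 and 1794, and intervals alone gave 3613 and 2580. The other settings gave 422 to 710 lower and 809 to 1222 higher genes. Of the named genes 123 were called, 81 with a pseudocount of 5 and between 89 and 147 under the other settings, and no called gene changed sign. List medians lay below that of all genes for 27 of 39 lists and for 26 to 28 under the alternatives. The median of the JAK/STAT list, -0.33, became 0.00896 with no filter and 0.40 with FPKM of at least 5. With no filter the median of the tracheal and salivary gland list moved from -1.07 to -0.77. That of the blood cell list moved from -0.76 to -0.28 and that of the late muscle and cuticle list from -1.21 to -0.58. Without the wild-type 3–4 h table, a choice made after seeing the data, the genes highest in the last remaining table, 2–3 h, had a median of -0.45, against -0.59 for those highest at 3–4 h, while the median of the class highest at 0–0.5 h turned from 0.16 to -0.14 and that of the class highest at 1–2 h moved from 0.74 to 0.55. With the 2–3 h table in place of 3–4 h, also chosen after seeing the data, the maternal set moved from a median of 271% of wild type to 85.6%, and the zygotic set from 43.2% to 50.5%. The cause was not tested.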

Other observations

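The proteasome genes divided by subcomplex. This split was made after the values were seen and was not tested. All 12 genes of the 20S core, which holds the proteolytic sites, were above wild type in the knockout at 4–5 h, with differences from 0.62 to 2.02 and a median of 1.10, and 7 of them were called higher. Pros28.1 was at 383 FPKM in knockout and 93.9 in wild-type embryos, and Prosalpha5 at 361 in knockout and 113 in wild-type embryos. Of the 17 genes of the 19S regulatory particle, which recognises and unfolds substrates, 13 were below wild type, none was called, and the median was -0.44. At 2–3 h the order was the other way round, with medians of -0.10 for the 20S core and 1.36 for the 19S regulatory particle.

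Of 7 stress response genes compared, 1 was higher and 1 lower, with a median of -0.26. GstD1, the higher one, was at 106 FPKM in knockout embryos and 19.4 in wild-type embryos at 4–5 h. It was already at 1020 in the knockout and 540 in wild type at 0–0.5 h. Thor, a translational repressor of the stress response, was the lower one, at 60.3 in the knockout and 167 in wild type at 4–5 h. CG5224 (GstE11), a glutathione S-transferase gene outside this list, was lower, as given above. nvd, the oxygenase that starts ecdysone synthesis from cholesterol, was at 3.88 in knockout and 0.235 in wild-type embryos.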
